A study of Mus musculus with 6 samples.

Results

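The genes described here were all rows of the deposited expression table that are integrin chains by their symbol (17 alpha chains and 8 beta chains) together with 11 core genes of the focal adhesion (Ptk2, Pxn, Ilk, Parva, Lims1, Fermt2, Tln1, Tln2, Bcar1, Tns1 and Tns3). They make 36 of the 24413 genes. The chains Itgam and Itgb2l were not analysed here. Symbols that begin like a chain but are none (Itgbl1, Itgb1bp1, Itgb1bp2 and Itgb3bp) were kept apart.

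Integrins are the receptors that fix a cell to its matrix. Each is a pair of an alpha and a beta chain whose short tails reach into the cell, and the alpha chain largely sets the ligand, such as collagen, fibronectin or laminin. Talins and kindlin bind the beta tail and switch the receptor on, and the complex of Ilk, PINCH and parvin, the FAK, paxillin and p130Cas proteins and the tensins then join the receptor to actin and to signalling at the focal adhesion. Tendon fibroblasts live among collagen fibres under load and hold them through such adhesions.

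Bulk RNA-seq compared 2 groups of Achilles tendon cells from 3 male mice aged 12 weeks with the genotype Tppp3ECE/+;R26RtdT-CreERT2;Scx-GFP, in which tdT marks the Tppp3 lineage. Cells gated by GFP and tdT fluorescence were kept for 24 h in 1% FBS (control, 3 libraries) or in dorsal root ganglion (DRG) conditioned medium (conditioned, 3 libraries). The ganglion cells came from 3 male C57BL/6J mice aged 12 weeks, grew for 4 to 5 days on poly-D-lysine and laminin with 5-fluoro-2-deoxyuridine and uridine (20 µM each), and then conditioned a medium with 1% FBS that was filtered and frozen. No such steps are described for the control medium, so products of the ganglia and those steps cannot be told apart. Which animal a library came from is not labelled, so the p-values measure only the spread between these libraries, and some of that spread may be technical.

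The libraries held 18774554 to 26061244 fragments over genes, and within each group no library was a copy of another. All 9 tendon fibroblast markers (Scx, Tnmd, Mkx, Col1a1, Col1a2, Fmod, Thbs4, Pdgfra and Dcn) had a mean of at least 1 FPKM, a level scaled by gene length and library depth. Their summed level was 4537 to 4659 FPKM in the control and 3585 to 3684 FPKM in the conditioned libraries. Most of that sum was Col1a1 (means of 3337 and 2662 FPKM) and Col1a2 (1040 and 809 FPKM). Of the 9 markers, 7 were lower in every conditioned library, while Pdgfra was higher in every one and Mkx overlapped between groups. Tppp3 itself was listed at 0.724 to 1.12 FPKM. Ptprc, the pan-leukocyte marker, was listed at 0.00930 FPKM or less and Cdh5, the endothelial cadherin, at 0.0453 FPKM or less. Other markers of these cell types were not absent. The leukocyte and macrophage markers Cd68, Lyz2 and Cd14 and the endothelial marker Tek each had a mean of at least 1 FPKM.

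In conditioned medium 1 integrin chain, Itga5 of the fibronectin receptor, rose and 1, Itgb3 of the vitronectin receptor, fell. Both differences were small, with 95% intervals of 1.11 to 1.23-fold for Itga5 and 0.819 to 0.932-fold for Itgb3 on the FPKM + 1 scale. The Itga5 call held in all 16 other settings of the processing, but the Itgb3 call in only 9 of the 16. The other 24 tested genes did not pass, among them all 11 core genes. Of all 11678 genes tested, 4.04% were higher and 2.49% lower, so 1 of 26 in each direction is close to the share over all genes. A gene was tested when its mean reached 1 FPKM, which 26 of the 36 genes did, and it was called at a limma p below 0.05 after Benjamini-Hochberg adjustment over the 11678 genes.

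The 2 groups of libraries did not overlap for 12 of the 26 tested genes. Conditioned libraries were the higher for 8 (Itga5, Itga1, Itga2b, Itgb1, Itgb5, Tln1, Fermt2 and Tns1), against 14.3% of all genes tested. They were the lower for 4 (Itgb3, Itgb4, Itgb8 and Tln2), against 11.6% of all genes. The median log2 difference of the 26 was 0.05, beside 0.0052 over all genes, and 19 lay above 0. Of the 26, 6 (Itga5, Itgb3, Itgb5, Fermt2, Tns1 and Tln1) had an unadjusted p below 0.05, as had 2290 of all genes.

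**Figure D1:**
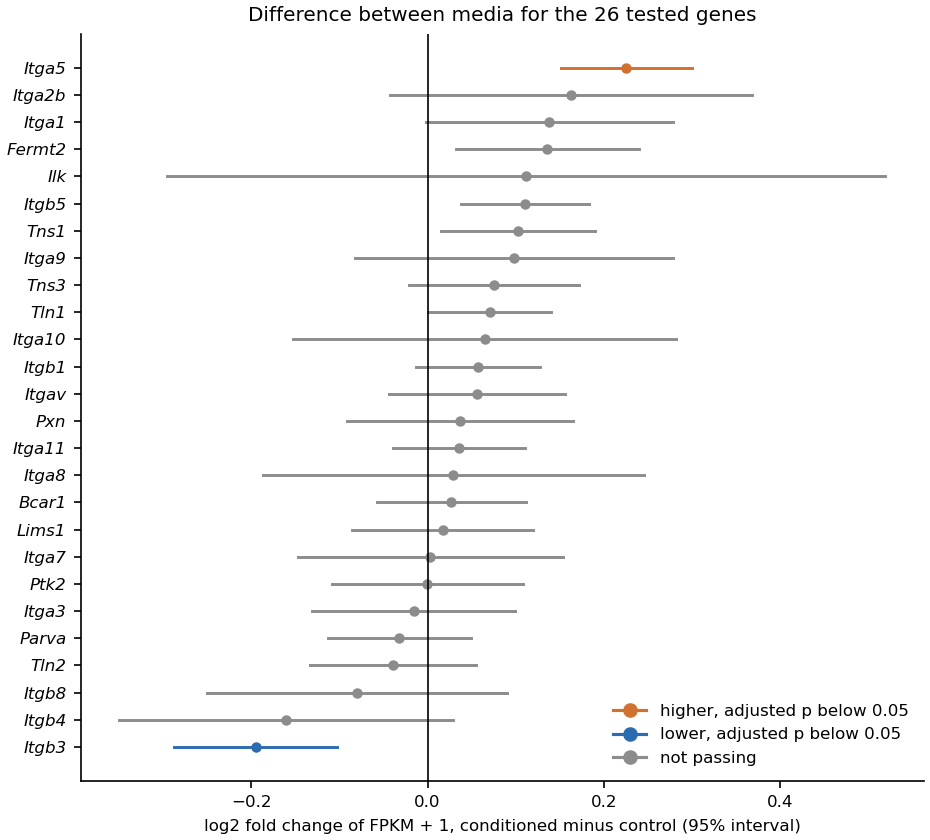
Points give the log2 difference in FPKM + 1 (conditioned minus control) for each of the 26 tested genes, and bars the 95% interval from limma with 3 libraries in each group. Itga5 (0.23) and Itgb3 (-0.19) are the genes that passed, and the interval of Ilk is the widest.

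Stretches of promoter are shown for Itga5, because it is the chain that rose, and for Fermt2 (kindlin-2), because it is the tested gene here whose window holds a CArG box, the motif bound by serum response factor, whose targets include many cytoskeletal genes. Each runs 5′ to 3′ on the gene's strand over the 250 bases before the RefSeq start site in GRCm38.p6. The Itga5 stretch is chr15:103366792-103367041 on the minus strand, and the Fermt2 stretch is chr14:45530066-45530315 on the minus strand. Capitals mark the CArG match, and the Itga5 stretch holds none.
Itga5: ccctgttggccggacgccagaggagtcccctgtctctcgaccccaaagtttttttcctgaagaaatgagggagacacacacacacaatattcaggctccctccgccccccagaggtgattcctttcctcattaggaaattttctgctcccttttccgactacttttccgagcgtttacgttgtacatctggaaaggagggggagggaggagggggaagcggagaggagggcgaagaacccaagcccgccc
Fermt2: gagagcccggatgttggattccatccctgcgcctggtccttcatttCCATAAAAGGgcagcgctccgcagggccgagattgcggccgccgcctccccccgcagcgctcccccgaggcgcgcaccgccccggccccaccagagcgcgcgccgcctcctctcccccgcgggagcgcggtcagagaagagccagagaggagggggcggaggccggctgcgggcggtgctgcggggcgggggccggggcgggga
The match in Fermt2 begins 204 bases before the start site. Windows of 300 bases (250 before and 50 after the start) were matched for 24 of the 36 genes, with 30 windows in all, and Itgb3 had no entry. A CArG box was found in 2 of the 30 windows (those of Fermt2 and Itgb6), beside 1.63% of all 32851 windows. Fermt2 did not pass and Itgb6 was not tested. The 250 bases before the RefSeq start of Itgb6 (chr2:60673694-60673943, minus strand) lie inside the gene as placed by GENCODE M21 (chr2:60598292-60722643). The Fermt2 stretch lies partly inside its gene, which GENCODE M21 places at chr14:45458795-45530118. The TEAD motif GGAATG, searched on both strands, was found in 2 of the 30 (those of Itga10 and Itgb1), beside 14.7% of all windows. These are matches of letters and no measurement of binding.

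Among the alpha chains, Itga11 and Itga5 stood far above the rest. Itga11, a receptor for fibrillar collagen on fibroblasts, had the highest mean over all 6 libraries and ranked 297 of all genes, although Itga5 had the higher mean in the conditioned libraries (125 against 124 FPKM). It was at 121, 123 and 119 FPKM in control libraries 1 to 3 and at 126, 122 and 125 FPKM in conditioned libraries 1 to 3. The groups overlapped, and the log2 difference was 0.04 ± 0.032 (SE, adjusted p = 0.616).

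Itga5 pairs with Itgb1 as the main receptor for fibronectin and reads its RGD sequence. The gene lies at chr15:103344286-103366763 on the minus strand (mm10, GENCODE M21). It was at 109.8, 105 and 107 FPKM in control and at 126, 125 and 124 FPKM in conditioned libraries. All conditioned libraries lay above all control libraries, and the gap between the groups exceeded the range within either. The log2 difference was 0.23 ± 0.032 (SE, 95% interval 0.15 to 0.30, adjusted p = 0.00495), from 36733 fragments in control and 39573 in conditioned libraries. The call held in all 16 other settings of the processing, with adjusted p from 0.000114 to 0.0485.

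Itgav pairs with several beta chains to bind vitronectin, latent TGF-beta and other RGD proteins. It was at 34.7, 33.8 and 32.0 FPKM in control and at 33.6, 35.1 and 35.8 FPKM in conditioned libraries. These values overlapped, and the difference did not pass (0.06 ± 0.043, adjusted p = 0.544). Itga3, a laminin receptor chain, was at 9.71, 10.0 and 9.46 FPKM in control and at 9.85, 9.08 and 9.90 FPKM in conditioned libraries, which also overlapped. Itga9, which binds tenascin and VCAM1, was at 2.71, 3.40 and 2.92 FPKM against 3.45, 3.33 and 3.06 FPKM. Both were far from the threshold, with adjusted p of 0.903 for Itga3 and 0.555 for Itga9.

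The remaining 5 tested alpha chains had means of 1.14 to 2.23 FPKM. Itga1, a receptor for network-forming and fibrillar collagens, had means of 2.07 ± 0.049 FPKM in control and 2.38 ± 0.091 FPKM in conditioned libraries (SD, n = 3), with no overlap. Its log2 difference of 0.14 had an interval of -0.0016 to 0.28 and an adjusted p of 0.260. Itga2b, the fibrinogen receptor chain of platelets, had means of 1.28 ± 0.230 and 1.54 ± 0.0082 FPKM (SD, n = 3), and control library 3 (1.53 FPKM) all but reached the lowest conditioned library (1.53 FPKM). Its log2 difference was 0.16 on the FPKM + 1 scale (adjusted p = 0.367) and 0.29 with the voom model on fragments. The FPKM + 1 scale understates differences of genes near 1 FPKM such as this one. Itga7, Itga8 and Itga10 overlapped between groups and had adjusted p of 0.991, 0.904 and 0.772. For Itga10, 33.5% of the exon bases are shared with the gene model Gm42957 on the same strand, so its fragments may be counted to either.

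The other 7 alpha chains lay under the level for testing. Itga2, another collagen receptor chain, was at 0.299 to 0.514 FPKM, and Itga6, a laminin receptor chain of epithelia, at 0.294 to 0.583 FPKM. Itga4, Itgad, Itgae, Itgal and Itgax are chains of leukocytes. Their libraries held at most 18 fragments each (Itgad in conditioned library 2). Itgal and Itgax were listed at 0 in 2 libraries each, where a count of 0 allows up to 3 fragments, or up to 0.0269 FPKM for Itgax in control library 1. For leukocytes and macrophages, 3 of the 7 markers in the table (Cd68, Lyz2 and Cd14) had a mean of at least 1 FPKM, and the summed level was 6.63 to 7.83 FPKM in the control and 6.68 to 7.02 FPKM in the conditioned libraries.

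**Figure D2:**
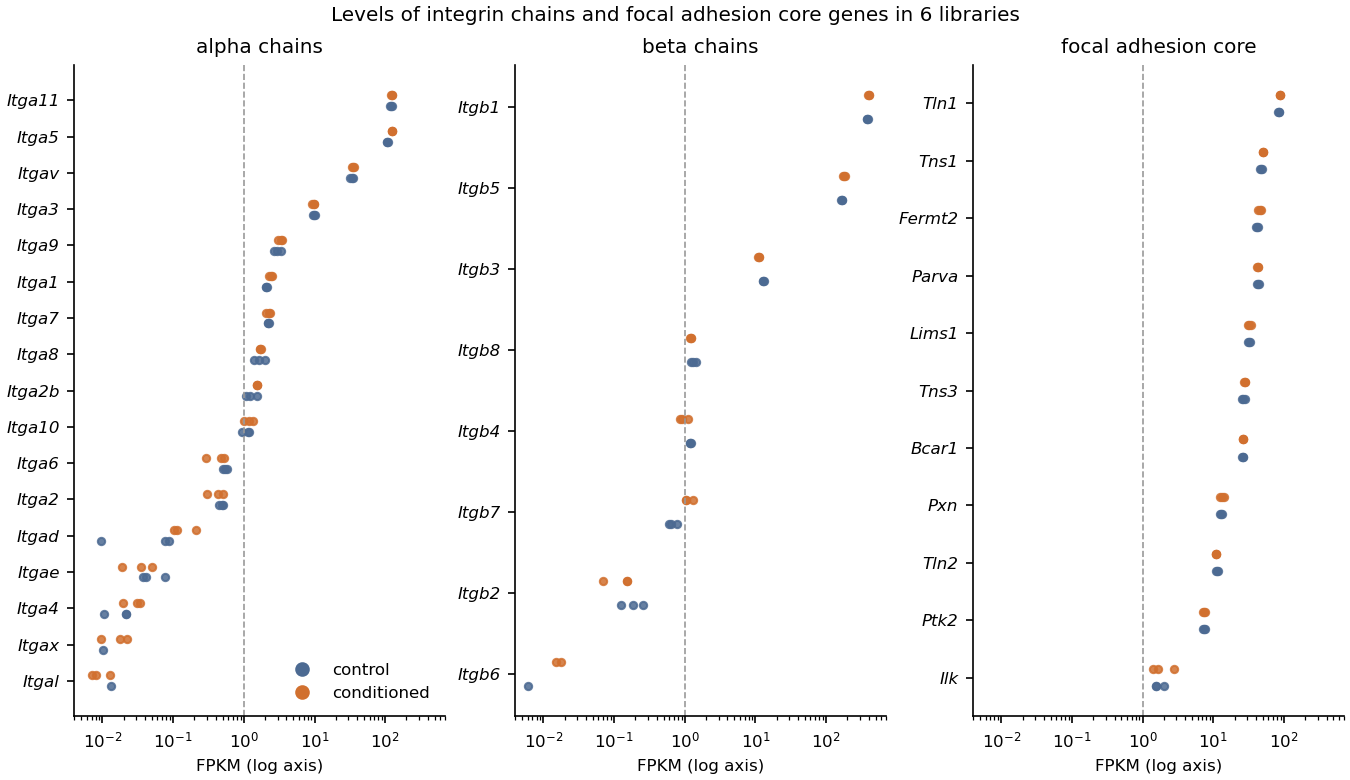
Each point is the FPKM of 1 gene in 1 library on a log axis, with control in blue and conditioned in orange, for the alpha chains, beta chains and core genes. The dashed line marks 1 FPKM, the mean a gene needed to be tested. Itgb1 lies highest, 11 core genes lie to the right of the line, and libraries listed at 0 for Itgal, Itgax and Itgb6 have no point.

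Among the beta chains, Itgb1, the partner of most alpha chains, was the most abundant member of either class and ranked 67 of all genes. It was at 393, 381 and 378 FPKM in control and at 401, 394 and 404 FPKM in conditioned libraries. Conditioned library 2 lay just above control library 1, so the groups did not overlap. The log2 difference was 0.06 ± 0.031 (SE, 95% interval -0.01 to 0.13) and did not pass (adjusted p = 0.357).

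Itgb5 and Itgb3 both pair with Itgav to bind vitronectin, and the 2 stood on opposite sides. Itgb5 was at 162, 167 and 167 FPKM in control and at 182, 176 and 179 FPKM in conditioned libraries, all of them higher. Its log2 difference of 0.11 ± 0.032 (SE, 95% interval 0.04 to 0.18) had an unadjusted p of 0.00826 and did not pass after adjustment (adjusted p = 0.0896).

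Itgb3 lies at chr11:104608000-104670476 on the plus strand. It was at 12.8, 13.1 and 12.8 FPKM in control and at 11.2, 10.9 and 11.3 FPKM in conditioned libraries. Every conditioned library lay below every control library. The log2 difference was -0.19 ± 0.040 (SE, 95% interval -0.29 to -0.10, adjusted p = 0.0264), from 5311 fragments in control and 4223 in conditioned libraries. The call was lost in 7 of 16 other settings. These were the fit with no filter on low genes (adjusted p = 0.0567), the replicate block, and the fits without control library 2, control library 3, or conditioned library 1, 2 or 3 (adjusted p from 0.0567 to 0.113), while the difference stayed between -0.23 and -0.18.

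Platelets and endothelium also carry Itgb3. Of the 5 endothelial markers 1, Tek, reached 1 FPKM, and it fell (-0.33, adjusted p = 0.0234). The summed level of the 5 was 5.76 to 6.54 FPKM in the control and 4.39 to 4.87 FPKM in the conditioned libraries, and Pecam1, Cdh5 and Vwf were each at 0.0830 FPKM or less. The 3 platelet markers in the table had a summed level of 3.35 to 4.90 FPKM in control, against 2.87 to 3.54 FPKM in conditioned libraries, nearly all of it Ppbp, with Pf4 listed at 0 in 4 of 6 libraries. The sort was gated on GFP and tdT, but whether tdT alone or both were required is not given in the sources used here. The part of other cell types in the Itgb3 difference was not tested. In bulk RNA, fewer cells of a type and less RNA per cell cannot be told apart.

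Itgb8, which pairs with Itgav to bind latent TGF-beta, was at 1.44, 1.23 and 1.32 FPKM in control and at 1.22, 1.197 and 1.21 FPKM in conditioned libraries. The groups lay close without overlapping, and the difference did not pass (-0.08 ± 0.074, adjusted p = 0.617). Itgb4, the laminin chain of hemidesmosomes, had means of 1.19 ± 0.021 FPKM in control and 0.965 ± 0.132 FPKM in conditioned libraries (SD, n = 3). Its log2 difference was -0.16 (adjusted p = 0.337) and was -0.32 with voom. Its partner Itga6 was under the level for testing.

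The beta chains Itgb2, Itgb6 and Itgb7 were not tested. Itgb2, the common leukocyte chain, held 4 to 16 fragments in a library, and Itgb6, an epithelial partner of Itgav, at most 3. Itgb7, a leukocyte chain singled out after its values were seen, was at 0.591, 0.647 and 0.788 FPKM in control and at 1.05, 1.32 and 1.03 FPKM in conditioned libraries. These values rest on 38, 47 and 44 fragments against 63, 69 and 67. With no filter on low genes its log2 difference was 0.35 ± 0.089 (SE) on the FPKM + 1 scale and did not pass (adjusted p = 0.152). That scale understates differences at such levels, where the means were 0.675 FPKM in control and 1.13 FPKM in conditioned libraries.

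**Figure D3:**
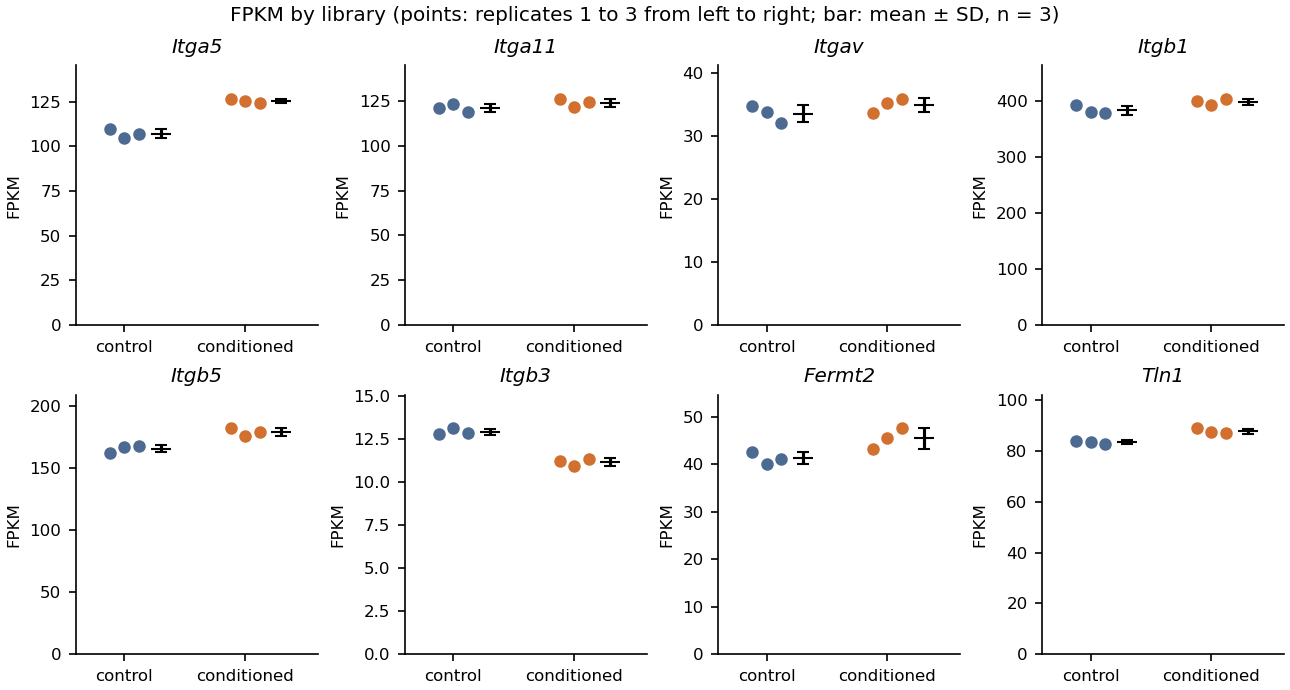
FPKM of 8 genes in each library, replicates 1 to 3 from left to right, with the mean and SD (n = 3) beside them and each axis starting at 0. Itga5 is higher and Itgb3 lower in every conditioned library, while Itga11 and Itgav overlap between groups.

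Summed over the class, the alpha chains came to 284 ± 4.19 FPKM in control and 307 ± 2.53 FPKM in conditioned libraries (SD, n = 3), with no overlap. The beta chains came to 566 ± 4.74 and 593 ± 7.90 FPKM, again with no overlap. Sums, shares and ratios were described after the values were seen. Chains that bind RGD (Itga5, Itgav, Itga8 and Itga2b) summed to 143 ± 3.51 FPKM in control and 163 ± 0.0815 FPKM in conditioned libraries, and collagen-binding chains (Itga1, Itga2, Itga10 and Itga11) to 125 ± 2.42 and 128 ± 2.18 FPKM. The first pair of sums did not overlap and the second did. Most of the rise in the RGD sum was that of Itga5, with means of 107 and 125 FPKM. Itgav (33.5 and 34.9 FPKM) and Itga8 overlapped between groups, and Itga2b did not pass.

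Itga5 made up 37.7 ± 0.828% of the alpha sum in control and 40.8 ± 0.336% in conditioned libraries, and Itga11 42.7 ± 0.601% and 40.4 ± 0.386%. The ratio of Itga11 to Itga5 was 1.10, 1.18 and 1.11 in control and 0.997, 0.973 and 1.00 in conditioned libraries. Itga11 exceeded Itga5 in each control library, while the 2 chains were close to level in the conditioned libraries. Itgb1 held 67.9 ± 0.780% of the beta sum in control and 67.4 ± 0.290% in conditioned libraries, Itgb5 29.3 ± 0.743% and 30.1 ± 0.280%, and Itgb3 2.28 ± 0.043% and 1.88 ± 0.013%.

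The ratio of Itgb5 to Itgb3, the 2 vitronectin partners of Itgav, was 12.7, 12.7 and 13.0 in control and 16.2, 16.1 and 15.8 in conditioned libraries. The ratio of Itga5 to Itgav was 3.16, 3.10 and 3.33 against 3.76, 3.56 and 3.47. Neither overlapped between groups. For these 2 and 3 further ratios between single genes, and for the ratio of the alpha to the beta sum, the two-sided exact permutation test gave p = 0.1, the smallest that 3 against 3 libraries allow (0.133 adjusted over 8 ratios).

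**Figure D4:**
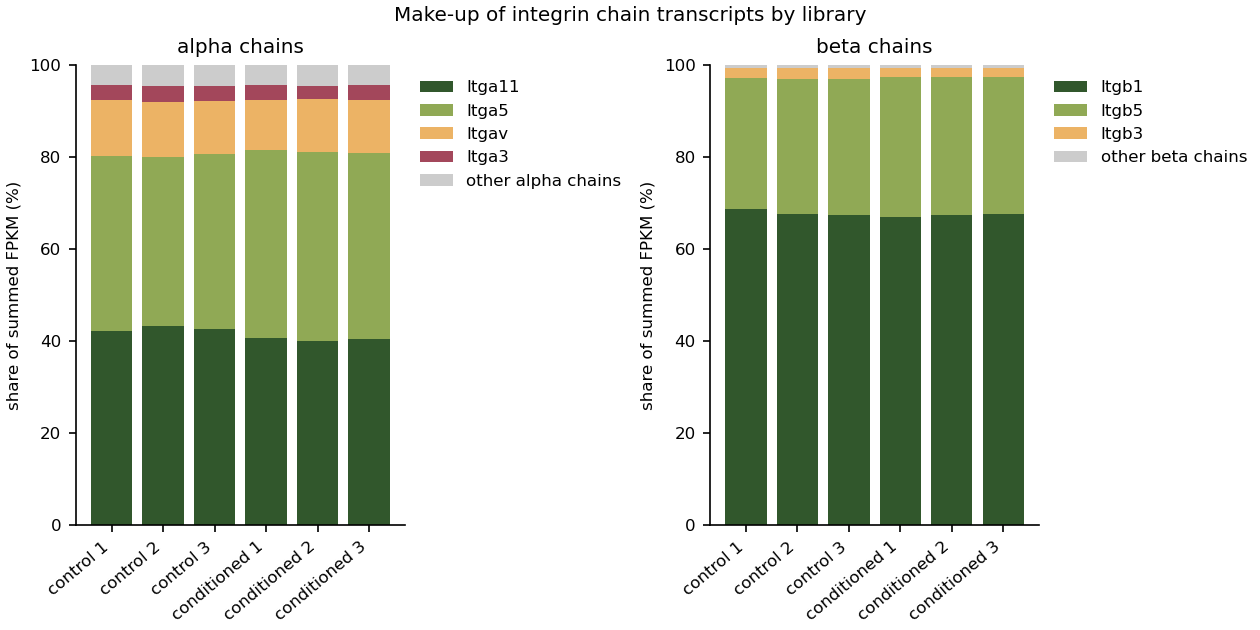
Stacked bars give each chain's share (%) of the summed FPKM of the alpha chains (left) and of the beta chains (right) in each of 6 libraries. Itga5 takes 37.7% of the alpha sum in control and 40.8% in conditioned libraries, and Itgb1 about the same share of the beta sum in all.

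In the focal adhesion core 0 of 11 genes passed, higher or lower, by limma, with 3 at an unadjusted p below 0.05 (Fermt2, Tns1 and Tln1). By voom 0 of 11 passed, with 2 at an unadjusted p below 0.05. Of the 11, 8 had a log2 difference above 0, and the median was 0.04.

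Talin joins the beta tail to actin. Tln1, the main talin outside muscle and brain, was at 84.2, 83.8 and 82.9 FPKM in control and at 89.0, 87.4 and 87.2 FPKM in conditioned libraries. The groups did not overlap, but the difference was small (0.07 ± 0.030, adjusted p = 0.251). Its paralog Tln2 was at 11.5, 11.3 and 10.96 FPKM in control and at 10.9, 10.9 and 10.9 FPKM in conditioned libraries (-0.04 ± 0.041, adjusted p = 0.666). The ratio of Tln1 to Tln2 was 7.33, 7.43 and 7.57 in control and 8.13, 8.05 and 7.99 in conditioned libraries.

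Fermt2 encodes kindlin-2, which works beside talin on the beta tail. It was at 42.6, 40.1 and 41.1 FPKM in control and at 43.2, 45.6 and 47.5 FPKM in conditioned libraries, with no overlap. The log2 difference of 0.14 ± 0.045 (SE, 95% interval 0.03 to 0.24) had an adjusted p of 0.136. Tns1, a tensin of fibrillar adhesions, the long sites where Itga5 and Itgb1 gather fibronectin, was at 47.6, 48.5 and 45.1 FPKM in control and at 51.0, 50.3 and 50.5 FPKM in conditioned libraries. Its log2 difference was 0.10 ± 0.038 (SE, adjusted p = 0.179). Tns3, a related tensin, was at 27.7, 26.02 and 25.8 FPKM against 28.4, 28.3 and 27.2 FPKM, which overlapped (adjusted p = 0.373).

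Ilk, Lims1 (PINCH1) and Parva (alpha-parvin) form the scaffold that ties the beta tail to actin. Lims1 was at 33.0, 31.7 and 31.0 FPKM in control and at 30.9, 32.3 and 33.6 FPKM in conditioned libraries. Parva was at 44.3, 42.1 and 43.5 FPKM against 42.3, 41.8 and 42.8 FPKM. Both overlapped, with 95% intervals of the log2 difference of -0.09 to 0.12 for Lims1 and -0.11 to 0.05 for Parva. Ilk was listed far lower, at 1.54, 1.54 and 2.02 FPKM in control and at 1.42, 1.67 and 2.81 FPKM in conditioned libraries, from 98, 111 and 112 against 85, 86 and 181 fragments. Conditioned library 3 stood above the rest, and without it the log2 difference moved from 0.11 to -0.08. Of its exon bases, 76.7% are shared with Taf10 and 12.9% with Rrp8, both on the other strand. The strand setting of the counting is not given in the sources used here, so the level of Ilk is uncertain. The 95% interval of its log2 difference was wide (-0.30 to 0.52).

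Ptk2 encodes the kinase FAK, and Pxn and Bcar1 encode its partners paxillin and p130Cas. Ptk2 was at 7.63, 7.16 and 7.41 FPKM in control and at 7.24, 7.38 and 7.58 FPKM in conditioned libraries. Pxn was at 12.6, 13.5 and 12.8 FPKM against 14.1, 13.5 and 12.4 FPKM, and Bcar1 at 26.1, 25.1 and 26.1 FPKM against 25.9, 26.2 and 26.6 FPKM. All 3 overlapped between groups. The 95% intervals of the log2 difference were -0.11 to 0.11 for Ptk2, -0.09 to 0.17 for Pxn and -0.06 to 0.11 for Bcar1.

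The machinery around these genes was read from lists of other adhesion genes, which were chosen with earlier results of these data known. Of 65 tested genes in 4 such lists, 5 rose and 0 fell by limma, against 4.04% higher and 2.49% lower over all genes. At an unadjusted limma p below 0.05 were 23 of the 65, beside 2290 of all 11678 genes. By voom 11 of these genes were higher and 2 lower, where 5.69% of all genes were higher and 4.04% lower. The lists' median log2 difference was 0.05.

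Adaptors gave 2 of the rises among 27 tested. Vcl, vinculin, which locks talin to actin, was at 77.0, 76.4 and 70.5 FPKM in control and at 99.5, 96.3 and 98.1 FPKM in conditioned libraries. Its log2 difference of 0.39 ± 0.042 (SE, adjusted p = 0.00112) exceeded that of every tested chain and core gene. Pdlim5, a PDZ-LIM protein of actin filaments, was at 43.2, 41.9 and 41.1 FPKM against 49.7, 50.3 and 48.7 FPKM (0.23 ± 0.035, adjusted p = 0.00665). By voom 5 adaptors were higher and 2 lower.

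Of the 9 actin linkers 3 rose. Actb, cytoplasmic actin, had a log2 difference of 0.26 (adjusted p = 0.00354). Palld, which bundles actin, had 0.17 (adjusted p = 0.0204), and Actn4, an alpha-actinin, 0.15 (adjusted p = 0.0455). The 6 smooth muscle and pericyte markers differed in both directions. Their sum was 2263 to 2424 FPKM in the control and 2464 to 2508 FPKM in the conditioned libraries, nearly all of it Acta2 (0.08, adjusted p = 0.222). Myh11 rose (0.31, adjusted p = 0.00238), Cnn1 and Cspg4 overlapped between groups, and the pericyte marker Rgs5 (0.932 ± 0.163 FPKM in control, 0.5002 ± 0.054 FPKM in conditioned libraries, SD, n = 3, not tested) and Des (-0.27, adjusted p = 0.112) were lower in every conditioned library. Their part in the rises of the actin linkers and of Itga5 was not tested.

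The lists of kinases and phosphatases (15 tested) and of integrin inhibitors and trafficking (14 tested) each had 0 calls by limma. At an unadjusted p below 0.05 there were 5 and 1, and voom called 1 kinase or phosphatase higher and 0 in the other list. Of 18 membrane partners tested 1 fell, Cav1, the caveolin that coats membrane pits (-0.15, adjusted p = 0.0469). Of 7 other matrix receptors 1 fell, Mrc2, the endocytic collagen receptor (-0.14, adjusted p = 0.0445). Itgbl1, an integrin-like protein without the tail of a chain, fell as well (-0.23, adjusted p = 0.0261). Over all genes 4.04% were higher and 2.49% lower by limma. By voom 2 membrane partners were higher and 2 lower, and 0 other matrix receptors were higher and 1 lower. Over all genes 5.69% were higher and 4.04% lower by voom.

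Integrin ligands were called in both directions. Of 48 tested ligand genes 7 rose and 8 fell, with 27 at an unadjusted p below 0.05, beside 4.04% higher, 2.49% lower and 2290 at an unadjusted p below 0.05 among all 11678 genes. By voom 10 were higher and 14 lower, beside 5.69% and 4.04% of all genes. Their median log2 difference was -0.04.

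Ligands read through RGD and other matricellular proteins gave 2 rises and 2 falls among 21. Spp1, osteopontin, a ligand of Itgav with Itgb3 or Itgb5, was at 67.7, 65.0 and 72.3 FPKM in control and at 117, 116 and 120.4 FPKM in conditioned libraries (0.78 ± 0.045, adjusted p = 3.64e-05). Nov, a matricellular protein of the CCN family, was at 42.2, 43.9 and 45.2 FPKM against 19.8, 19.7 and 18.6 FPKM, the largest difference of the ligand lists (-1.14 ± 0.043, adjusted p = 3.71e-06). Postn, periostin, fell (-0.41, adjusted p = 0.000154), and Ltbp1, which holds latent TGF-beta in the matrix, rose (0.26, adjusted p = 0.0248). By voom 5 of these 21 were higher and 7 lower.

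Of 13 collagens 6 fell and 2 rose. Col1a1 and Col1a2, the chains of tendon's main fibril and ligands of Itga11, fell by 0.33 and by 0.36 on the log2 scale (adjusted p = 0.000312 and 0.000476), while Itga11 itself did not pass. Col2a1 (-0.50), Col11a1 (-0.25), Col5a2 (-0.18) and Col3a1 (-0.15) fell too. Col4a1 (0.16) and Col4a2 (0.17), the basement membrane collagens bound by Itga1, rose with adjusted p of 0.0238 and 0.0279. Among 6 laminin chains 1 rose, Lama5 (0.32, adjusted p = 0.0152), while the laminin receptor chains Itga3 and Itga7 did not pass. Cell surface ligands gave 2 rises among 8, Jam2 (0.29) and Adam9 (0.21).

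Of the 23 called genes of these lists, 9 passed in every other setting (Vcl, Pdlim5, Spp1, Nov, Postn, Col1a1, Col1a2, Col2a1 and Col11a1). Actb was lost with quantile normalization (adjusted p = 0.0981). The other 13 were each lost without conditioned library 2, as Itgb3 was, and each of them in at least 1 further setting.

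**Figure D5:**
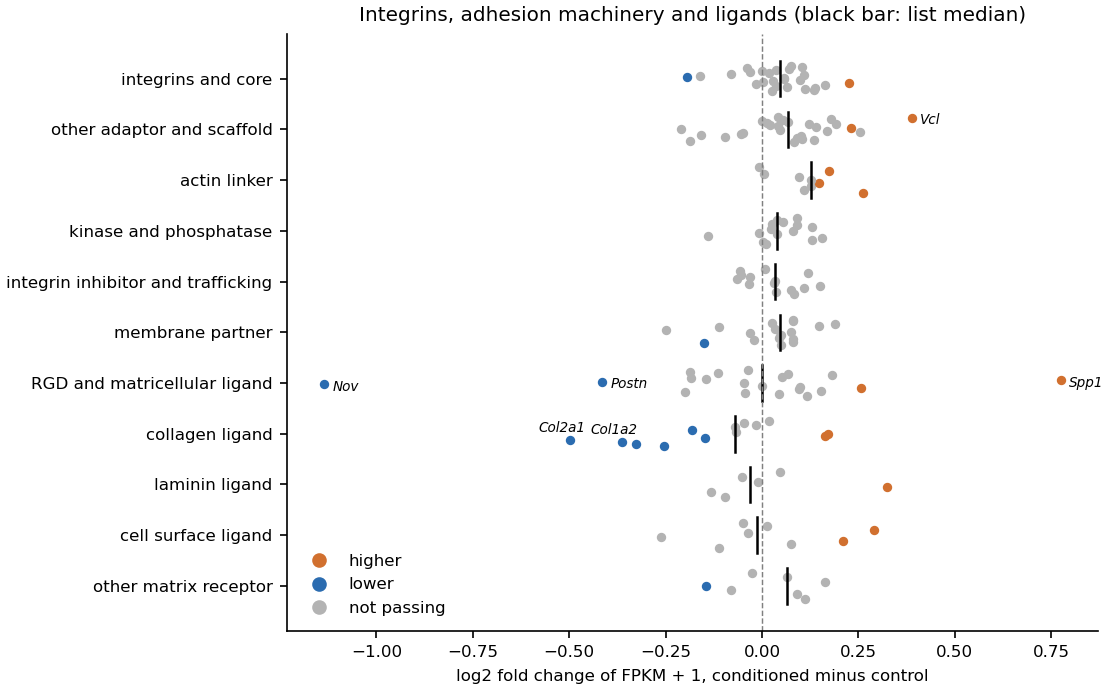
Each point is a tested gene's log2 difference in FPKM + 1 (conditioned minus control), by list, with the list median as a black bar and genes that passed in orange (higher) or blue (lower). The integrins and core lie within -0.19 to 0.23, while ligands reach from -1.14 (Nov) to 0.78 (Spp1).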

How the data were processed

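Per the file headers, the deposited values of the 6 libraries are FPKM, which the authors give for 24413 genes. Tools and builds listed in the submitters' processing notes are CASAVA, HISAT2 2.0.5 and mm10. Not given in the sources used here are the counting program, annotation release, strand setting and filters. The fit was made on log2(FPKM + 1) for the 11678 genes whose mean reached 1 FPKM, with limma 3.58.1 under R 4.3.3 (moderated linear model, trend, robust prior, two-sided) with Benjamini-Hochberg adjustment and a threshold of 0.05. The code was tested on simulated data. Whole fragments could be recovered from the FPKM steps for 24413 of 24413 genes (tolerance 0.01 fragment), and the recovered fragments gave the depth and a voom fit. Gene positions and exon overlaps came from GENCODE M21.

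The members and lists were chosen with earlier results of these data known. The genes given in every library are those that passed, the 5 alpha and 4 beta chains with the highest mean, and all core genes. Itgb7 was added after its values were seen. From each list the called genes with the largest differences are named, up to 6, except that all 8 called collagens are named, which was chosen after their values were seen. The 16 alternatives changed the pseudocount, filter, scaling, prior, model, replicate block or the libraries used. Sequence tables came from RefSeq (GRCm38.p6), and protein sequences were not used here. A further list of adhesion genes is not reported here.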

Additional observations from a re-analysis of the deposited data

How the results depend on the processing

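Itga5 passed in 16 of 16 alternatives and Itgb3 in 9 of 16, and 0 of the 24 other tested members passed in any alternative. The 3 libraries in a group limit the precision, and members under 1 FPKM rest on few fragments. Over all genes, 165 were lower with no filter on low genes and 472 with voom on the recovered fragments. Leaving out each library in turn gave 265 to 426 genes higher, 129 to 250 genes lower and 0 to 1 members lower. With no filter on low genes 0 members were lower.

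Whether the replicate numbers pair the libraries is not labelled. Deviations of same-numbered libraries from their group means correlated at -0.0948, -0.00803 and -0.0476. With 3 libraries in a group these values cannot settle it. With the replicate number as a block 259 genes were higher and 131 lower, and 0 members were lower (Itgb3 adjusted p = 0.128).

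The sign held for 17 of the 26 tested members in every alternative and turned for 9, none of them called. With upper-quartile scaling, which moved the median of all genes to -0.0254, the log2 difference was -0.0004 for Itga11, -0.022 for Itga7, -0.0079 for Bcar1 and -0.0178 for Lims1. Itga7 was at -0.0023 with median-of-ratios scaling and -0.0111 with voom, and Bcar1 at -0.0034 with quantile normalization. Leaving out each library in turn gave -0.0497 to 0.1179 for Itga8, -0.0356 to 0.0207 for Itga3, -0.0272 to 0.0430 for Itga7, -0.0208 to 0.0194 for Ptk2, -0.0034 to 0.0847 for Pxn, -0.0827 to 0.2434 for Ilk and -0.0119 to 0.0468 for Lims1. The cause was not tested.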
